A study of Sus scrofa with 27 samples.

Results

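The interleukin-20 receptor chain IL20RB was followed in pig mural granulosa cells (GCs) together with the receptor chains and signalling genes that stand next to it in the IL-20 and IL-6 pathways. The 10 genes were IL20RB, its partner chains IL20RA and IL22RA1, the shared chain IL10RB, the IL-6 family receptor chains IL6ST, IL6R and LIFR, the kinase JAK1, the transcription factor STAT3 and its inhibitor SOCS3. They were taken from 35670 Ensembl identifiers by their gene symbol, and each symbol belonged to 1 identifier. The set was chosen by the fall of IL20RB in feed-restricted sows, so the difference of IL20RB between the diets is described here without a test. Of the 10 genes, 8 were among the 11384 genes tested, and IL20RA and IL22RA1 were below the mean count of 5 that the test required.

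The sows were first-litter TN70 animals, a cross of Large White and Norwegian Landrace, and all had nursed a litter. Full-fed (FF) sows received 6.5 kg of feed per day and restricted (RES) sows 3.25 kg per day in the last part of lactation, and after weaning both groups were fed alike until the ovaries were collected on day 2. Mural GCs, the cells that line the follicle wall, were cut from the largest healthy follicle by laser capture microdissection (LCM), and each sow gave 1 library for RNA sequencing, which made 13 FF and 14 RES libraries. The sequenced FF sows were those with the lowest and the RES sows those with the highest loss of body weight in their group, so the groups are not random draws from the diets. The libraries held 12299220 to 18120922 counted read pairs. Counts are given as normalized counts, which are counts divided by a size factor for the depth of each library. Because LCM samples are bulk samples, fewer cells of a type and less RNA per cell cannot be told apart.

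IL-20 type cytokines bind receptors made of 2 different chains. IL20RB pairs with IL20RA to bind IL-19, IL-20 and IL-24, or with IL22RA1 to bind IL-20 and IL-24, while IL10RB completes the receptors for IL-10, IL-22, IL-26 and the lambda interferons. IL-6 type cytokines signal through IL6ST (gp130), which works with IL6R for IL-6 and with LIFR for leukaemia inhibitory factor. Both kinds of receptor use JAK kinases, which phosphorylate STAT3, and STAT3 then enters the nucleus and switches on targets such as SOCS3, an inhibitor that closes the loop. Activation of STAT3 is a matter of phosphorylation, which RNA counts do not measure.

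The 250 bases upstream of the annotated start are shown for 3 genes: IL20RB, the chain whose level differed most between the diets, and SOCS3 and IL10RB, whose windows held the letters TTCNNNGAA, the palindromic motif known for STAT dimers. The sequences are from the RefSeq annotation and genome of Sscrofa11.1, the build of the count files, on the plus strand of chr13:77946106-77946355, chr12:3643582-3643831 and chr13:196853356-196853605. They are written 5′ to 3′ in lower case, with a match to the motif in capitals. The motif reads the same on both strands.
IL20RB: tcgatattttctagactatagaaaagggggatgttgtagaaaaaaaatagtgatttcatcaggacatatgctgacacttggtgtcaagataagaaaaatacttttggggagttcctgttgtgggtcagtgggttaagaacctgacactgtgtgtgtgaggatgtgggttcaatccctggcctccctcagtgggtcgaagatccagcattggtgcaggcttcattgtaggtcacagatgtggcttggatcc
SOCS3: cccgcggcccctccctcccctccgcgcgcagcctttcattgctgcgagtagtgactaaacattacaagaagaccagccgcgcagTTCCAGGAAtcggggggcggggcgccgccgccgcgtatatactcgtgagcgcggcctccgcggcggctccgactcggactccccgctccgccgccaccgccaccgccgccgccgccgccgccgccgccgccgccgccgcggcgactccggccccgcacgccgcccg
IL10RB: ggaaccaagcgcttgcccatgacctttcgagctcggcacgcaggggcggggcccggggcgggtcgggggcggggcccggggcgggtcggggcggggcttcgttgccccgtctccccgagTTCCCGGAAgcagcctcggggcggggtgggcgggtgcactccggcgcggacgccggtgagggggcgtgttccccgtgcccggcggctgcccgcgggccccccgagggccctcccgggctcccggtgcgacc
The match in SOCS3 began at position −166 and the match in IL10RB at position −131 relative to the start. No match lay in this window of IL20RB, STAT3, IL6ST, IL6R, JAK1, IL20RA or IL22RA1. Of 19556 protein-coding promoters of the same length, 6.12% held the motif. LIFR had no RefSeq entry under its symbol and was not searched.

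IL20RB (ENSSSCG00000060620, chr13:77946356-77986158, plus strand) was detected in every library. In FF GCs the lowest value was 11.4 normalized counts, the median 60.8 and the highest 291. In RES GCs the lowest was 8.02, the median 18.4 and the highest 42.9. Of the 13 FF sows, 7 lay above the highest RES sow, and the other 6 lay inside the RES range. The 14 RES sows were below the FF median, while 2 FF sows were below the RES median. The fitted log2 fold change was −2.13 (SE 0.42), a level 4.39-fold lower in RES, and it was the fifth lowest of the genes tested. Among the 9513 genes whose mean over the libraries reached 20 normalized counts it ranked 3 from the lowest. These values chose the gene.

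The spread of IL20RB was much wider in FF than in RES sows. The mean of the 13 FF sows was 94.3 ± 89.6 (SD) and that of the 14 RES sows 22.05 ± 11.3, which is a coefficient of variation of 95% and 51%. FF sow 14 was highest, and FF sow 3 was lowest within its group. Leaving out each library in turn gave log2 fold changes of −2.25 to −1.86, with the smallest difference without FF sow 14. The libraries fall into an upper and a lower group by a gap in the base quality of their reads, which no source names as a batch. In the upper group the medians were 33.1 in FF (n = 7) and 14.9 in RES (n = 7), with a log2 fold change of −2.52. In the lower group they were 69.9 (n = 6) and 31.6 (n = 7), with a log2 fold change of −1.81. IL20RB was higher in FF within both groups, but these libraries also chose the gene, so the split describes the difference and cannot support it.

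**Figure D1:**
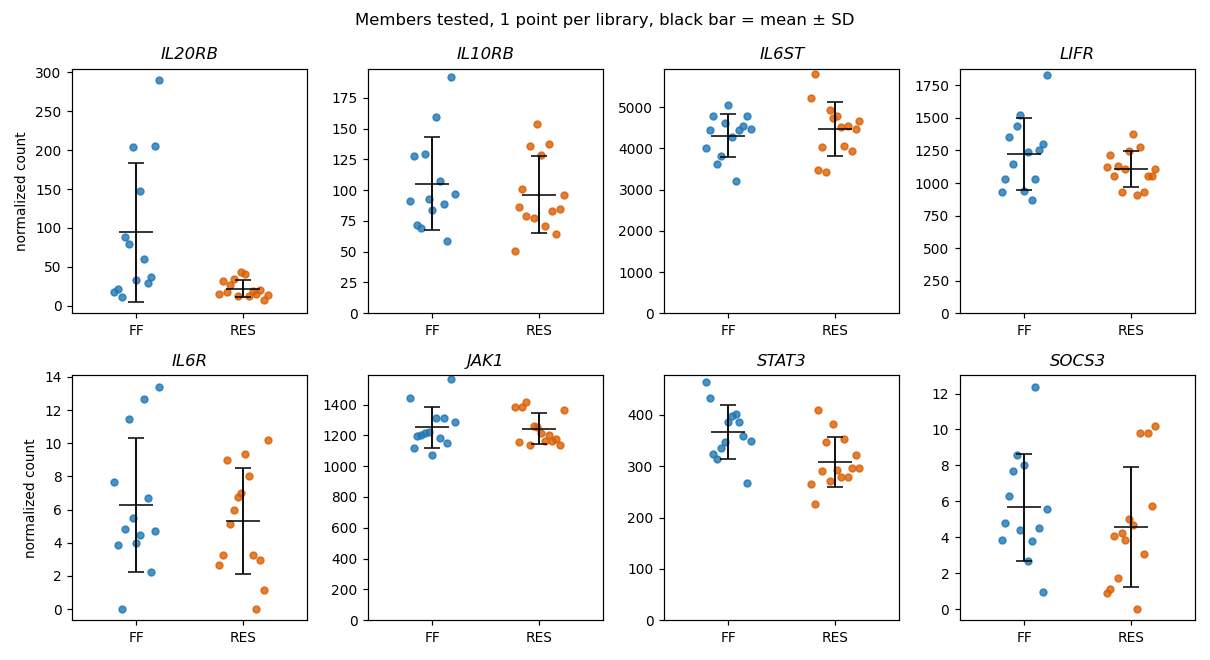
Normalized counts of the 8 members tested, with 1 point per library, the 13 FF libraries in blue and the 14 RES libraries in orange. Black bars are the mean ± SD. IL20RB reached 291 in FF and 42.9 in RES, whereas the groups overlap widely in IL10RB, IL6ST, LIFR, IL6R, JAK1 and SOCS3.

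The chains that IL20RB needs as partners were nearly without reads. IL20RA (ENSSSCG00000004157, chr1:27137545-27172341, plus strand) had 0 reads in the 13 FF libraries and 4 reads in RES, spread over 3 libraries. The 0 reads in FF allow up to 0.0168 CPM (counts scaled to the library total) among 178579761 reads counted. In RES the 4 reads are 0.0186 CPM, with an exact Poisson 95% interval of 0.00507 to 0.0476. IL22RA1 (ENSSSCG00000038848, chr6:81867849-81885017, minus strand) had 3 reads in FF, in 2 libraries, or 0.0168 CPM (0.00346 to 0.0491). It had 0 reads in RES, which allows up to 0.0140 CPM among 215013101 reads counted. These limits cover counting error only. Fitted without a count filter, each chain had an unadjusted p of 0.031 and an edgeR adjusted p of 0.15, so no difference between the diets was called. For comparison, IL20RB had 1200 reads in FF and 328 in RES.

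The ligands of these receptors were at a similar floor. IL19, IL20 and IL24, the cytokines bound through IL20RB, had 0 reads in both groups, with the same limits of 0.0168 CPM in FF and 0.0140 in RES. IL22 had 2 reads in FF and 8 in RES, IL26 had 0 and 6, and IL10 had 6 and 9. IL22RA2, a soluble receptor that captures IL-22, had 4 reads in FF and 5 in RES. IL10RA, the chain that binds IL-10 itself, had 54 reads in FF and 28 in RES and was below the limit for testing.

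IL10RB (ENSSSCG00000041289, chr13:196853606-196884237, plus strand) was well measured. In FF its lowest value was 58.4 normalized counts, its median 92.5 and its highest 192. In RES these were 50.8, 85.4 and 154. The groups overlapped, with 11 of 13 FF sows inside the RES range. RES relative to FF gave a log2 fold change of −0.17 (SE 0.18), and edgeR's adjusted p over all genes was 0.56. The values of IL10RB did not differ beyond the spread between sows.

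Among the IL-6 type chains, IL6ST (ENSSSCG00000016916, chr16:35101304-35151832, minus strand) had the most counts. It ranged from 3198 to 5044 normalized counts in FF, with a median of 4453, and from 3422 to 5802 in RES, with a median of 4529. Between the diets it differed by a log2 fold change of 0.01 (SE 0.08, edgeR adjusted p = 0.94). A gene model on the opposite strand, LOC102168151, overlaps IL6ST over 50529 bases, and the counting names no strand, so reads of that transcript could be included.
LIFR (ENSSSCG00000016850) ranged from 871 to 1831 normalized counts in FF, with a median of 1239, and from 909 to 1378 in RES, with a median of 1106. Of the FF sows, 3 lay above the highest RES sow and 1 below the lowest. Its log2 fold change was −0.18 (SE 0.10, edgeR adjusted p = 0.21).
IL6R (ENSSSCG00000027628, chr4:95322426-95381393, minus strand) was close to the limit of detection. It had 79 reads in each group, from 0 to 12 per FF library and from 0 to 11 per RES library. The log2 fold change of −0.27 (SE 0.38, edgeR adjusted p = 0.67) is therefore poorly determined.

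JAK1 (ENSSSCG00000003809, chr6:147320288-147567188, plus strand), the kinase shared by both receptor types, was the steadiest member. Its lowest, median and highest values were 1072, 1218 and 1565 normalized counts in FF. In RES they were 1136, 1209 and 1415. The coefficient of variation was 10.7% in FF and 8.13% in RES. RES and FF differed by a log2 fold change of −0.05 (SE 0.06, edgeR adjusted p = 0.59). JAK1 shares 259 bases at its end with RAVER2 on the other strand.

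STAT3 (ENSSSCG00000017403, chr12:20407316-20471091, plus strand) was lower in RES GCs. Its values in FF were 267 at the lowest, 360 at the median and 465 at the highest. In RES they were 227, 295 and 409. The groups overlapped, but 12 of the 14 RES sows lay below the FF median and 2 lay below every FF sow. The log2 fold change was −0.29 (SE 0.09, edgeR adjusted p = 0.024), so the fitted level fell by 18.4%. STAT3 was called in each of the 27 fits that left out 1 library, with log2 fold changes of −0.33 to −0.26. In the upper quality group the log2 fold change was −0.35 (edgeR adjusted p = 0.025) and in the lower group −0.24 (edgeR adjusted p = 0.54). The lower group alone called 1 of 11384 genes, so a missing call there, here and below, sets no gene apart. In the fit over all identifiers it was −0.25 (edgeR adjusted p = 0.060).

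SOCS3 (ENSSSCG00000036956, chr12:3643832-3647015, plus strand), a direct target of STAT3 and the inhibitor of gp130 signalling, had few reads. It had 72 reads in FF, from 1 to 13 per library, and 66 in RES, from 0 to 10 per library. For SOCS3 the log2 fold change was −0.36 (SE 0.37, edgeR adjusted p = 0.54). In the lower quality group its sign was reversed, at 0.25. Of the 7 members tested besides IL20RB, STAT3 was the one that passed the test. Over all genes tested, 14.1% were called, 5.85% lower and 8.29% higher in RES. The effect of diet was not called as different between the quality groups for any of these 7 members (edgeR interaction, adjusted p of 0.56 to 0.98), and the same fit called 0 of 11384 genes, with 1398 at an unadjusted p under 0.05 and 57 called by DESeq2.

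Levels were compared between genes per kb of exon, with the RefSeq exon lengths, which can differ from the Ensembl models used for counting. In FF GCs the order by mean normalized count per kb was IL6ST with 601 ± 72.7 (SD, n = 13), JAK1 with 214 ± 23.0, STAT3 with 148 ± 21.3, IL10RB with 96.8 ± 34.8, IL20RB with 7.54 ± 7.17, SOCS3 with 2.15 ± 1.13 and IL6R with 1.08 ± 0.69. The order was the same in RES, where IL6ST had 623 ± 90.4 (SD, n = 14), IL10RB 88.5 ± 28.4, IL20RB 1.76 ± 0.90 and SOCS3 1.74 ± 1.28. IL6ST and JAK1, JAK1 and STAT3, and IL10RB and IL20RB were separated by more than their summed SDs in both groups. STAT3 and IL10RB were not, nor were IL20RB and SOCS3 or SOCS3 and IL6R. IL10RB was 12.8 times the level of IL20RB per kb in FF and 50.2 times in RES. These ratios depend on exon lengths of 1089 bases for IL10RB and 12504 bases for IL20RB. Before division by length, the mean normalized counts of IL10RB and IL20RB were 105 and 94.3 in FF. In RES they were 96.4 and 22.05.

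**Figure D2:**
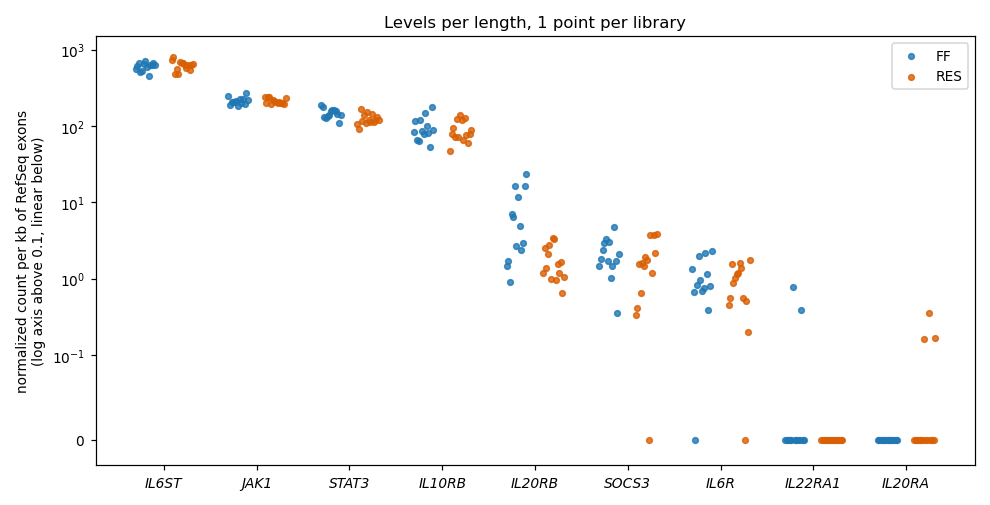
Normalized count per kb of RefSeq exons for 9 members, with 1 point per library, on an axis that is logarithmic above 0.1 and linear below it. IL6ST, JAK1, STAT3 and IL10RB lie far above IL20RB, SOCS3 and IL6R, and IL22RA1 and IL20RA are at 0 in most libraries.

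The wider pathway was described with 7 gene lists. Without IL20RB they held 79 genes, of which 57 were tested, and 8 of the 57 were called, 6 lower and 2 higher in RES. That is 14.04% of those tested, close to the 14.1% of all genes. The median log2 fold change of the 57 genes was −0.12, and that of all genes tested was −0.02.

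Of these 8 calls, 4 were STAT factors. Of 9 JAK and STAT genes tested, 4 were lower in RES and 0 higher, and the median log2 fold change was −0.25. That is 44.4% of those tested, beside 5.85% of all genes called lower. Besides STAT3 these were STAT2, STAT5A and STAT6, while STAT5B and the kinases JAK1, JAK2, JAK3 and TYK2 were not called, with log2 fold changes between −0.25 and 0.03. STAT2, which acts in the type I interferon response, had a median of 263 normalized counts in FF (215 to 326) and 239 in RES (168 to 295). For STAT2 the log2 fold change was −0.29 (SE 0.08, edgeR adjusted p = 0.015). STAT5A, which carries prolactin and growth hormone signals, had a median of 49.1 in FF (30.1 to 76.0) and 30.9 in RES (21.2 to 57.9). Its log2 fold change was −0.70 (SE 0.19, edgeR adjusted p = 0.014), and 7 of 14 RES sows lay below every FF sow. STAT6, which carries IL-4 and IL-13 signals, had a median of 62.0 in FF (41.7 to 103) and 47.2 in RES (24.0 to 76.4). Its log2 fold change was −0.46 (SE 0.15, edgeR adjusted p = 0.042), and it was called in 11 of the 27 fits that left out 1 library, with an adjusted p of up to 0.072 in the others. Of the 10 other settings STAT6 was called in 4, and it was not called without the count filter or with RIN as a covariate (edgeR adjusted p = 0.058 in each). STAT2 and STAT5A were called in each of the 27, but in neither quality group alone (edgeR adjusted p of 0.055 and 0.38 for STAT2, 0.066 and 0.35 for STAT5A), and STAT2 was just above the limit with all identifiers (edgeR adjusted p = 0.050). Over the 10 other settings the log2 fold change ran from −0.30 to −0.24 for STAT2 and from −0.81 to −0.59 for STAT5A. The number of JAK and STAT calls fell from 4 to 3 without the count filter and with RIN as a covariate, and to 1 with all identifiers in the fit and in the upper quality group alone. In the lower group it was 0. Over all genes, 1483 of 14889 were called without the count filter, 1524 of 11384 with RIN and 2282 of 17429 with all identifiers. The upper group alone called 2023 of 11384 and the lower group 1. STAT5A and STAT5B overlap over 683 bases, STAT2 and IL23A over 952 bases and STAT6 and NAB2 over 69 bases, each on opposite strands.

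Of the class II cytokine receptors, the family of IL20RB and IL10RB, 7 of 11 were tested. IFNAR1, a chain of the type I interferon receptor, was called lower, as were 5.85% of all genes tested. IL20RB, whose fall chose the set, is not counted here. IFNAR1 had a median of 1066 normalized counts in FF (885 to 1249) and 881 in RES (785 to 1102). No FF sow lay below the RES median, and 7 of the 14 RES sows lay below every FF sow. For IFNAR1 the log2 fold change was −0.28 (SE 0.07, edgeR adjusted p = 0.0064). It was called in each of the 27 fits without 1 library and in 9 of the 10 other settings. The exception was the lower quality group alone (edgeR adjusted p = 0.32). The other 5, which include IL10RB, had log2 fold changes of −0.30 to −0.13 (edgeR adjusted p of 0.17 to 0.57).

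Of the 9 IL-6 family receptors, 7 were tested and edgeR called 0. Their median log2 fold change was −0.12, and DESeq2, which gave no adjusted p for IL31RA and IL6R, called 0 of the others. The 1 receptor with an unadjusted p under 0.05 was IL31RA (log2 fold change −0.96, edgeR adjusted p = 0.084), which was called without FF sow 14 (−1.07, edgeR adjusted p = 0.039). Of the 9 IL-6 family ligands, 2 were tested, IL6 and CNTF, and edgeR called 0, with 0 at an unadjusted p under 0.05. DESeq2 did not call CNTF and gave no adjusted p for IL6. CNTF was the best measured of these ligands, with 562 reads in FF and 598 in RES. IL6 had 57 reads in FF and 79 in RES. LIF had 9 and 11 reads, and OSM had 0 and 5.

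Of 16 inhibitors of the pathway, PTPN2 was called, and it was higher in RES. That is 6.25% of those tested, beside 14.1% of all genes called and 8.29% called higher. PTPN2 is a phosphatase that removes phosphate from JAK1 and STAT3. Its median was 596 normalized counts in FF (494 to 745) and 751 in RES (580 to 862), and the 13 FF sows were below the RES median. The log2 fold change was 0.26 (SE 0.07, edgeR adjusted p = 0.0092). It was 0.23 in the upper (edgeR adjusted p = 0.084) and 0.29 in the lower quality group (edgeR adjusted p = 0.30), and was called in neither alone. A gene model on the opposite strand, LOC110261158, overlaps PTPN2 over 2128 bases. The other 15 inhibitors had log2 fold changes between −0.48 and 0.20, and PIAS2, not called over all libraries, was called lower in the upper group (−0.28).
Of 20 textbook targets of STAT3, 18 were tested, 1 was higher and 1 lower, with a median log2 fold change of −0.07. BIRC5, also called survivin, which is known for its role in chromosome segregation and as an inhibitor of cell death, was higher in RES. It had a median of 117 normalized counts in FF (24.0 to 243) and 320 in RES (108 to 613). The fitted log2 fold change was 1.44 (SE 0.27, edgeR adjusted p = 0.0019), and 12 of 14 RES sows lay above every FF sow. BCL6, a transcriptional repressor, had a median of 86.5 in FF (44.3 to 184) and 47.0 in RES (35.0 to 134). Its log2 fold change was −0.75 (SE 0.22, edgeR adjusted p = 0.020), and 7 of 14 RES sows lay below every FF sow. BCL6 was called in the upper quality group (−1.11, edgeR adjusted p = 0.022) but not in the lower (−0.38, edgeR adjusted p = 0.62), and BIRC5 was not called in the lower group (1.29, edgeR adjusted p = 0.12). That lower group alone called 1 of 11384 genes. The 2 calls are 11.11% of the targets tested, beside 14.1% of all genes. There were 3 calls in the upper quality group, where MYC was also higher, and 3 without FF sow 10, where PIM1 was also higher. The other 16 had edgeR adjusted p of 0.12 to 0.96.

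**Figure D3:**
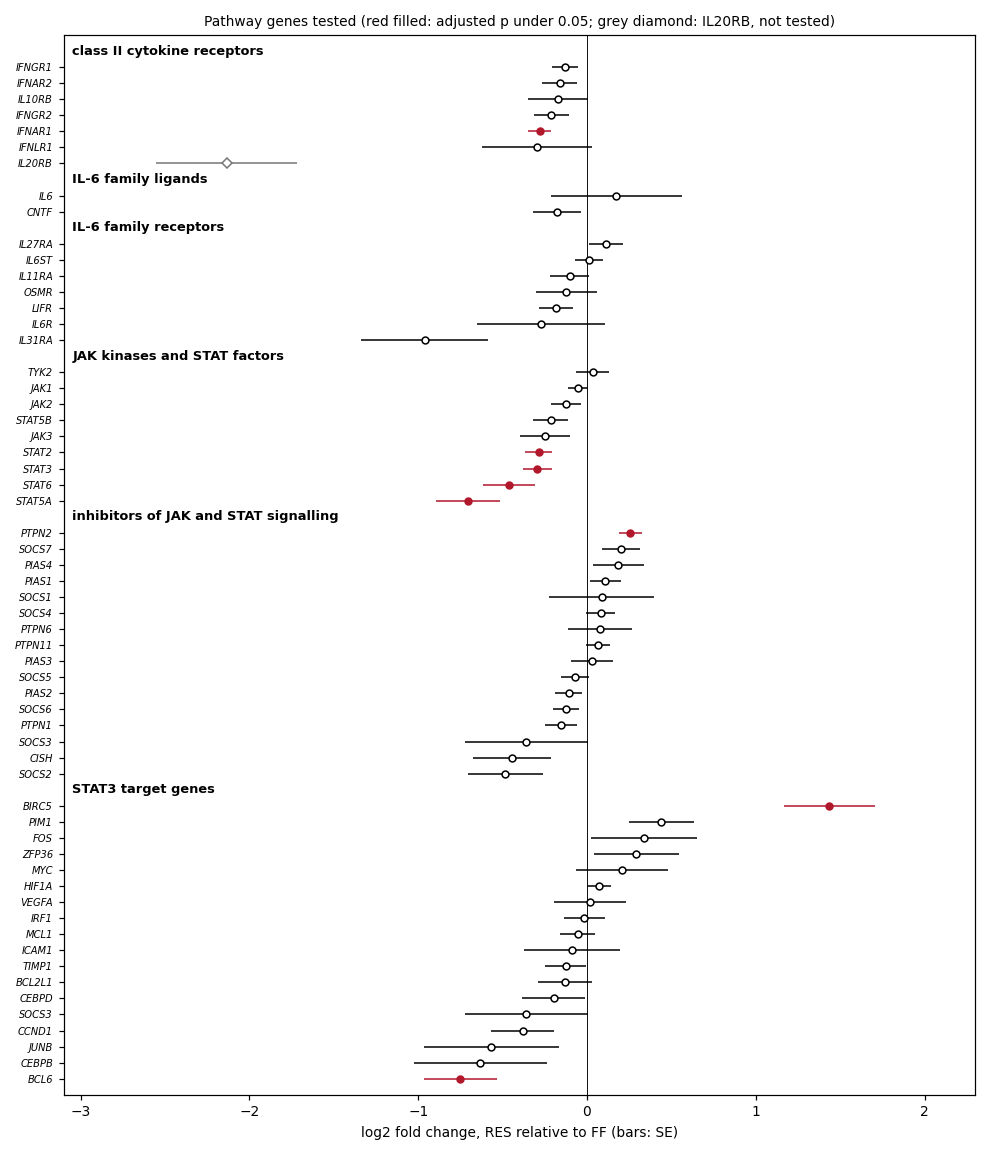
Log2 fold change of RES relative to FF with its SE for the pathway genes tested, grouped by list, where SOCS3 stands in 2 lists. Filled red points are genes called at an adjusted p under 0.05, and the grey diamond is IL20RB, which is given without a test. The 4 JAK and STAT calls and IFNAR1 lie to the left of 0, and PTPN2 and BIRC5 to the right.

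Markers of GC and of other cells were read from the same fit, in which 14.1% of all genes were called and 5.85% were called lower. Among GC markers, edgeR called 0 of 9 (1 at an unadjusted p under 0.05, 0 by DESeq2), and their summed level was 78000 to 128533 normalized counts in FF and 78752 to 156356 in RES. Of 7 endothelial markers tested, edgeR called CDH5, EMCN and CLDN5 lower in RES (5 at an unadjusted p under 0.05), and DESeq2 also TEK. PECAM1 was at −0.12 (edgeR adjusted p = 0.68), and TIE1 went the other way, at 0.40 (edgeR adjusted p = 0.23). The sums over the list were 1176 to 2383 in FF and 830 to 2346 in RES. Of 5 theca markers, edgeR called CYP11A1 lower (3 at an unadjusted p under 0.05), and DESeq2 also CYP17A1. The theca sums were 1734 to 5737 in FF and 846 to 4861 in RES. CYP11A1 was called in neither quality group alone. Of 6 pericyte and smooth muscle markers, PDGFRB and RGS5 were lower, PDGFRB in 12 of the 27 fits without 1 library and in 4 of the 10 other settings, with sums of 2804 to 8142 and 1885 to 7923. Of 5 immune markers tested, edgeR called 0 (2 at an unadjusted p under 0.05), as did DESeq2, which gave no adjusted p for ITGAM, with sums of 88.6 to 435 and 48.1 to 345. Of the 3 erythroid markers, HBB was lower, but not called without FF sow 14 (log2 fold change −1.10, edgeR adjusted p = 0.088) or in the lower quality group (−0.42, edgeR adjusted p = 0.77, against −3.20 in the upper), and SLC4A1 was at 0 in 24 libraries, with sums of 35.5 to 1046 and 9.63 to 147. Epithelial markers with an identifier summed to at most 12.1, and UPK3B was at 0 in 16 libraries. Single libraries moved these counts. Without RES sow 7, 2 immune, 3 theca, 5 endothelial and 3 pericyte and smooth muscle markers were called lower, and over the fits without 1 library the theca and the pericyte counts each ran from 1 to 3. Calls over all 11384 genes also rose without RES sow 7, to 2350, of which 1096 were lower. The fit with all libraries called 1610, of which 666 were lower. Of the GC markers, INHBB was called higher without FF sow 10 and with RIN as a covariate, and AMH and INHBB in the upper quality group. CD163, an immune marker, was called lower in the upper quality group. The median log2 fold change was −0.56 for theca, −0.54 for endothelial, −0.57 for immune and −0.35 for pericyte and smooth muscle markers. It was −1.36 for erythroid markers, 0.15 for GC markers and −0.02 for all genes tested. The part of these cells in the differences of IL20RB, STAT3 and the other genes was not tested.

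Within each diet group the summed markers were set against IL20RB and STAT3, in 28 relations of which 0 passed an adjusted p of 0.05 and 3 had an unadjusted p under 0.05 (permutation test, two-sided). IL20RB had r = 0.62 with the immune markers in FF (permutation p = 0.029, adjusted 0.32, rho = 0.19 with p = 0.54). That value was 0.07 without FF sows 10 and 14, so it rests on those sows. In RES it was 0.55 (permutation p = 0.035, adjusted 0.32, rho = 0.16 with p = 0.59), and 0.09 without RES sows 1 and 7, on which it rests. STAT3 had r = 0.65 with the theca markers in RES (permutation p = 0.013, adjusted 0.32, rho = 0.60 with p = 0.028), and 0.55 without RES sows 1 and 7.

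Within each diet group, the normalized counts of the 8 members tested were compared pair by pair, which gave 56 correlations across sows. Of these, 7 had an unadjusted p under 0.05 in two-sided permutation tests and 0 passed the adjustment over the 56. The highest was IL20RB with LIFR in FF, at r = 0.76 (permutation p = 0.0024, adjusted 0.14, rho = 0.55 with p = 0.055, n = 13). It was 0.57 without FF sows 13 and 14 (permutation p = 0.061), 0.88 within the upper quality group (n = 7) and 0.47 within the lower (n = 6). In RES the pair had r = 0.54 (permutation p = 0.045, adjusted 0.36, rho = 0.56 with p = 0.042, n = 14). That fell to 0.15 without RES sows 7 and 8, on which the relation rests. Within the RES sows of the upper and lower quality groups it was 0.48 and 0.55.

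IL20RB with IL10RB had r = 0.68 in RES (permutation p = 0.0083, adjusted 0.15, rho = 0.54 with p = 0.050, n = 14). It was 0.41 without RES sows 7 and 8 (permutation p = 0.18), so it rests on them in part. Without single sows it ran from 0.55 to 0.76. Among RES sows of the upper quality group r was 0.24, and among those of the lower group 0.79. In FF it was 0.41 (permutation p = 0.17, adjusted 0.60, rho = 0.44 with p = 0.14), with 0.08 in the upper and 0.94 in the lower group. IL20RB with STAT3 had r = −0.46 in FF (permutation p = 0.11, adjusted 0.60, rho = −0.45 with p = 0.13) and 0.19 in RES (permutation p = 0.52, adjusted 0.86, rho = 0.26 with p = 0.36). The difference of r between the diets was not tested. STAT3 in RES had r = −0.70 with IL6ST (permutation p = 0.0051, adjusted 0.14, rho = −0.68 with p = 0.0097) and 0.64 with IL10RB (permutation p = 0.013, adjusted 0.18, rho = 0.67 with p = 0.0096). Without the sows farthest from the median these were −0.58 (RES sows 2 and 5, permutation p = 0.050) and 0.46 (RES sows 7 and 10, permutation p = 0.14). The pair of IL6ST and STAT3 had r = −0.84 without RES sow 7, where its adjusted permutation p was 0.019.

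**Figure D4:**
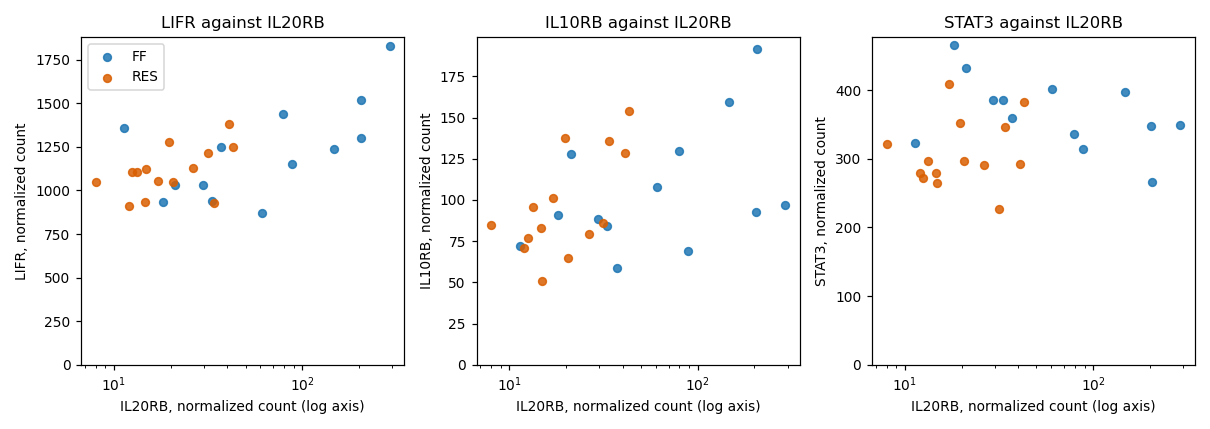
LIFR, IL10RB and STAT3 plotted against IL20RB, all in normalized counts, with IL20RB on a log axis and 1 point per library (blue FF, orange RES). FF sow 14 has the highest IL20RB (291) and the highest LIFR (1831), and the RES points lie in a narrow range of IL20RB.

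**Figure D5:**
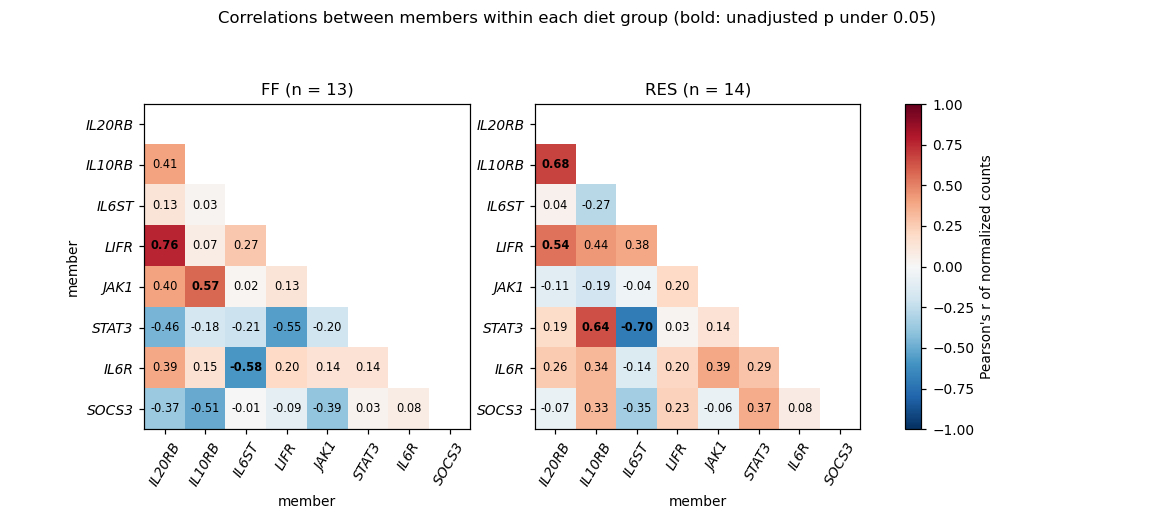
Pearson's r between the 8 members tested, in FF (n = 13) and RES (n = 14) separately, with red for positive and blue for negative values and bold print where the unadjusted permutation p was under 0.05. The values ran from −0.58 to 0.76 in FF and from −0.70 to 0.68 in RES.

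The genes most like IL20RB were ranked by Pearson's r of log2(CPM + 1) after each gene was centred on its diet group mean, over 27 libraries and the 9512 genes whose mean reached 20 normalized counts. This is a description without a test, and all points share their libraries. The 5 highest were ARHGAP21 with 0.71, TTC17 with 0.69, ENTPD1 with 0.68, BTC with 0.67 and SLC35G2 with 0.67. The 5 lowest were TFRC with −0.67, ATP5F1D with −0.63, ST3GAL5 with −0.63, CIAO2B with −0.62 and PSMD1 with −0.62. Of the members, LIFR ranked 19 from the top (0.63), IL10RB 271 (0.48) and JAK1 950 (0.34), while IL6ST (0.04) and STAT3 (−0.19) lay far below. Of the 5 highest, 5 were in the top 100 when FF sows were ranked alone and 0 when RES sows were ranked alone, although ARHGAP21 ranked 105 there, with r = 0.65. Likewise, of the 5 lowest, 5 were in the bottom 100 in FF alone and 0 in RES alone.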

How the data were processed

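The authors deposited whole-number counts per Ensembl gene, without normalization, for 27 libraries. According to the methods, the file headers and the submitters' processing notes, ribosomal RNA was removed, reads were aligned to Sscrofa11.1 with HISAT2 2.2.1, uniquely mapped reads were kept with SAMtools 1.16.1, PCR copies were removed by their molecular identifiers with UMI-tools 1.1.4 and read pairs were counted on exons with featureCounts 1.6.2, with no strand option. The total per library was 12299220 to 18120922.

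From these deposited counts, identifiers whose mean count reached 5 and that had a symbol were tested, without 38 small RNA symbols, with edgeR 4.0.16 (R 4.3.3, TMM, quasi-likelihood test) and Benjamini-Hochberg adjustment over 11384 genes. The limit for a call was an adjusted p of 0.05. Fold changes compare RES with FF, with an SE from the fold change and the F value. Normalized counts use DESeq2 1.42.0 size factors over 17467 identifiers. Correlations used 100000 permutations, or all of them under 10 sows. The tests were checked on simulated data for RES against FF with 11384 genes, where edgeR recovered 86% of genes changed by a log2 fold of 1 and 100% of those changed by 2. Alternatives were DESeq2's Wald test, its size factors, no count filter, filterByExpr, all identifiers, a replicate block, the RNA integrity number or read quality group as a covariate, each quality group alone and leaving out each library.

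The members and gene lists were chosen with earlier results of these data known. Members are named, list genes where they were called, and of the genes most like IL20RB the 5 highest and 5 lowest. The relations with summed cell markers were added after seeing the data. The integrity number and quality group of FF sow 10 are uncertain, because the labels name FF sow 9 as left out for its integrity number, while the lowest number in the study's list stands at FF sow 10. Some genes of the planned pathway and marker lists are not reported here.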

Additional observations from a re-analysis of the deposited data

How the results depend on the processing

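Of the 10 other settings, the number of genes called (1610) stayed within 1.5 times in 9, and was 1 in the lower quality group alone. Leaving out single libraries gave 1182 (without FF sow 6) to 2350 (without RES sow 7). The log2 fold change of IL20RB lay between −2.52 and −1.57 over these settings, the latter with the replicate block, and between −2.25 and −1.86 without single libraries. STAT3 was called in 7 of 10 settings; it was −0.25 with all identifiers, −0.29 with the replicate block and −0.24 in the lower quality group, where it was not called, and −0.33 to −0.26 without single libraries. Pathway calls without IL20RB fell from 8 to 5 with all identifiers, 4 with the replicate block and 0 in the lower group, and were 7 to 8 without single libraries. JAK and STAT calls fell from 4 to 3 without the count filter and with RIN as a covariate, to 1 with all identifiers, with the replicate block and in the upper group, and to 0 in the lower group, and were 3 to 4 without single libraries. The causes were not tested.

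Signs turned for IL6ST with RIN as a covariate (−0.013), in the upper group (−0.048) and without single libraries (−0.023 to 0.042), for JAK1 in the upper group (0.023) and for SOCS3 (−0.36) in the lower group (0.25), within a range of −0.83 to 0.25. The r of IL20RB with STAT3 in RES turned to −0.028 without the 2 sows farthest from the median and −0.044 in the lower group, and was −0.060 to 0.35 without single sows. Of the 5 genes most like IL20RB, 0 were in the top 100 within RES and 3 by ranks. Under the 6 alternatives to Pearson's r, 0 of 56 pairs passed.

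Equal sow numbers in FF and RES did not mark shared animals: of 13 same-numbered pairs, 1 had a correlation of deviations over 0.1 and 0 matched best, so the replicate block, which called 1086 genes and under which STAT2, STAT3, STAT6, BCL6, PDGFRB and HBB were not called but the markers INHBB (higher) and AIF1 (lower) were, is no paired analysis. Depth limits IL6R, SOCS3, IL20RA, IL22RA1 and the ligands other than CNTF.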
